A study of Homo sapiens with 10 samples.

Results

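The sites described here are C positions, edited by APOBEC1 fusion proteins, that lie within the last 100 nt of a messenger RNA in the human erythroid line HUDEP-2. A site entered when it fell in the 3′ UTR of the longest protein-coding GENCODE release 29 basic transcript covering it (GRCh38) and its distance along the spliced transcript to the annotated 3′ end was under 100 nt, the last base counting as distance 0. This gave 1513 of 18073 site records, at 1512 positions in 778 genes, and 1513 of the 11359 records in any 3′ UTR. HUDEP-2 is an established, immortalised erythroid progenitor line. Each of 5 constructs, 1 library each, was driven by a doxycycline-inducible TRE promoter. The control was GFP-7aa-APOBEC1, in which GFP and the deaminase were joined by a linker of 7 amino acids (aa). The others were FAM46C-7aa-APOBEC1, FAM46C-27aa-APOBEC1, FAM46C-52aa-APOBEC1 and FAM46C-74aa-APOBEC1. All cells received doxycycline, for 48 h per the sample labels and for 24 h per the series' design text, and no library without a deaminase was used here. Only the 7 aa pair was matched in linker. For the longer linkers, bait and linker differed together.

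The poly(A) tail is added at the 3′ end of a messenger RNA after cleavage downstream of a signal hexamer, usually AATAAA or ATTAAA. FAM46C, now named TENT5C, is a non-canonical poly(A) polymerase that lengthens tails in the cytoplasm, and it is known for acting on transcripts of secreted and membrane proteins. APOBEC1 is a cytidine deaminase that turns C into U in RNA, by preference next to A and in AU-rich stretches. Joined to another protein, it marks RNA that the protein comes close to, beside background edits of the deaminase itself.

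The following windows show the C that was edited, in capitals, with 10 transcript bases on each side, written 5′ to 3′ on the transcript strand with T for U and taken from the GENCODE transcripts. The first set shows the sequence setting of 13 of the 14 sites called different from GFP in the most comparisons, the other not being printed.
GNAS chr20:58911113-58911133, plus strand: ataaaagaaaCaaatgaaata
ECH1 chr19:38815474-38815494, minus strand: aactttatgaCaatgagtttc
ECH1 chr19:38815482-38815502, minus strand: cagtttataaCtttatgacaa
HBB chr11:5225486-5225506, minus strand: catctggattCtgcctaataa
HBB chr11:5225528-5225548, minus strand: agtccaactaCtaaactgggg
PKM chr15:72199085-72199105, minus strand: tcccccactaCtgcagcacct
TMEM258 chr11:61789172-61789192, minus strand: cttttttttaCtgttgctgga
RHAG chr6:49605249-49605269, minus strand: tgcatgttgaCtatttgcaac
NEDD8 chr14:24216890-24216910, minus strand: tctcttatgaCtgtgtccctg
SIVA1 chr14:104759616-104759636, plus strand: atcctaatgaCagaatgaata
TPSAB1 chr16:1242447-1242467, plus strand: ctaagcctgaCgcctgcaccg
RNH1 chr11:494573-494593, minus strand: tgaagagaaaCgctcagatcc
PGAM1 chr10:97433385-97433405, plus strand: cataactgtaCtaaatccttt
The second set was taken outside the first, from sites that had at least 50 reads in every library and were not variant-like (defined below). It holds those with the highest edited share in the GFP library, the background against which the first set is read.
TUBB chr6:30725342-30725362, plus strand: ttatgttgaaCttgctgcttt
TRMT112 chr11:64316747-64316767, minus strand: gacccaatgaCaccaaacaca
H2AFZ chr4:99948129-99948149, minus strand: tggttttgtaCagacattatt
S100A6 chr1:153534614-153534634, minus strand: ggtaattgtaCaataaatttt
All of these lie in the last exon of their gene, as did 1511 of the 1513 members.

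Reads at the members numbered 48218 to 65245 per library, 7.45% to 9.34% of each library's reads at all sites (627323 to 749000), with a median of 25 to 35 reads per site. The highest number at a member was 300 to 309 in each library, and how reads were limited, if they were, is not given in the sources used. Read numbers are therefore not taken as a measure of transcript level. Sites of 1 gene lie close together and share reads, so a sum over sites counts some reads more than once. Every member had at least 2 edited reads in some library, and 816 members (53.9%) had exactly 2 in their highest library. On the transcript strand 1508 members (99.7%) were C. The labels do not state strand, and 128 members (8.46%) lay under exons of more than 1 gene, so overlapping genes cannot be told apart there. At 3 members, in PGAM1, HBG2 and FOPNL, the edited share was at least 20% in every library with 5 or more reads, and these are called variant-like. Transcripts of erythroid cells were among the members, with sites in HBB, HBD and HBG2 and in RHAG. HBG2 is near-identical to HBG1, and 1 HBG2 position has 2 records, so its values are uncertain.

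The share of reads that carried the edited base (the editing level) near the 3′ end was highest with the 7 aa FAM46C fusion and lowest with the 74 aa fusion. It was 2.29% (95% Wilson interval 2.16 to 2.42; 1197 of 52308 reads) with GFP and 7.98% (7.76 to 8.21; 4454 of 55788 reads) with FAM46C 7 aa. With the 27 aa linker it was 5.43% (5.23 to 5.64), with 52 aa 4.87% (4.71 to 5.04) and with 74 aa 1.43% (1.34 to 1.53). None of the 5 intervals overlapped. The level was thus 3.49 times that of GFP (interval 3.28 to 3.71) for 7 aa, 2.37 times (2.22 to 2.54) for 27 aa and 2.13 times (1.99 to 2.27) for 52 aa, and 0.626 times (0.574 to 0.683) for 74 aa. Intervals cover counting error only, since the reads carry no molecular identifiers and there is 1 library per construct. They treat the reads at each site as separate, though neighbouring sites share reads, so they can be too narrow even for counting error. No difference here has a replicate check. Over members with at least 2 edited reads in a library outside the compared pair, the ratios were 3.35, 2.45, 2.12 and 0.678 for 7, 27, 52 and 74 aa. Over the 269 members with at least 2 edited reads in the GFP library they were 1.86, 1.44, 1.25 and 0.448, a filter that by its construction raises the GFP level and so lowers the ratio.

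Farther from the end, the fusions stood less above GFP. GFP itself edited the near-end window less than the rest of the 3′ UTR, with 2.87% at 100 to 399 nt and 3.80% at 400 nt or more. FAM46C 7 aa went the other way, with 5.38% at 100 to 399 nt and 4.25% at 400 nt or more. Its ratio to GFP was 1.88 (1.81 to 1.95) at 100 to 399 nt and 1.12 (1.09 to 1.15) at 400 nt or more. For 27 aa these ratios were 1.36 and 0.753, for 52 aa 1.25 and 0.784, and for 74 aa 0.382 and 0.263. In coding sequence the ratios lay between 0.881 for 52 aa and 1.15 for 7 aa. The odds ratio of fusion to GFP near the end, divided by that of all other 3′ UTR sites, was 2.78 (2.59 to 2.98) for 7 aa and 2.69 (2.50 to 2.90) for 27 aa. For 52 aa it was 2.41 (2.25 to 2.59), and for 74 aa it was 2.16 (1.97 to 2.38). Thus the 74 aa fusion also edited the near-end window more, relative to its other 3′ UTR sites, although its level there was below that of GFP. The 4 comparisons share the GFP library, so its value enters each of them. Entry of sites also differed by window. Sites with at least 2 edited reads in the GFP library alone were 4.69% of near-end sites and 24.0% of other 3′ UTR sites. The GFP levels by window are to be read with that difference. The divided odds ratios were also taken over sites with at least 2 edited reads in a library outside the compared pair. They were then 2.09, 2.08, 1.83 and 1.69 for 7, 27, 52 and 74 aa.

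**Figure D1:**
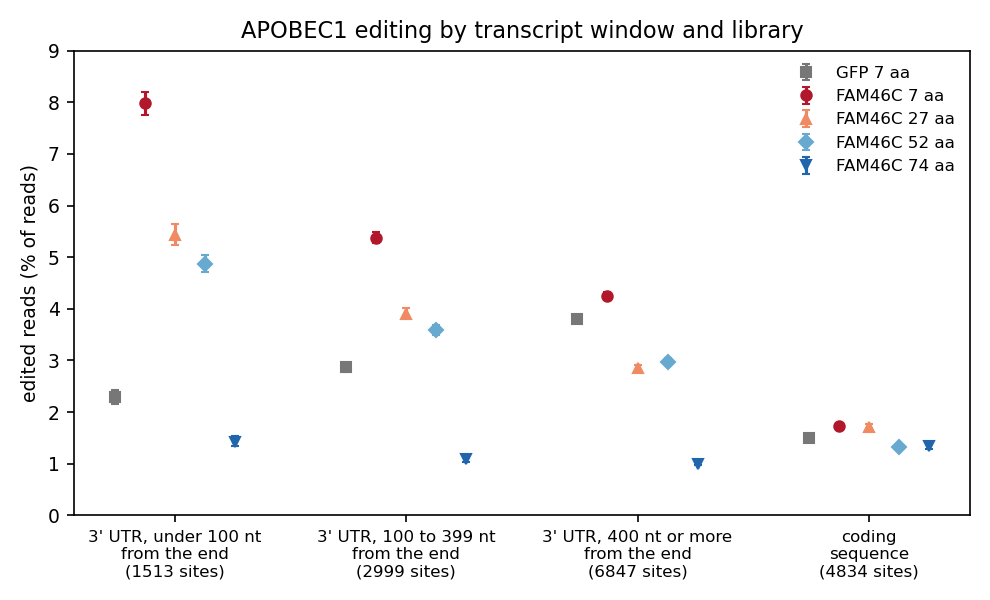
Edited reads in percent of reads (vertical axis) in 4 transcript windows (horizontal axis) for the 5 libraries, each point a sum over all sites of the window with its 95% Wilson interval. Near the end FAM46C 7 aa stands at 7.98% and GFP at 2.29%, while in coding sequence all 5 libraries lie between 1.32% and 1.73%.

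Since different genes could supply the near-end and the other 3′ UTR sites, the same genes were also compared with themselves. Of the 778 genes, 460 (59.1%) also had 3′ UTR sites at 100 nt or more. Within these 460 genes (Mantel-Haenszel odds ratios, stratified by gene) the odds of editing with FAM46C 7 aa over GFP were 3.84 near the end (3.51 to 4.22) and 1.62 in the rest of the 3′ UTR (1.56 to 1.68), a ratio of 2.38 (2.15 to 2.63). That ratio was 2.10 (1.88 to 2.34) for 27 aa, 2.08 (1.87 to 2.31) for 52 aa and 1.59 (1.39 to 1.83) for 74 aa. Gene by gene the preference was uneven. With at least 50 reads in both windows and both libraries, 88 of 137 genes (64.2%) had a larger difference from GFP near the end than in the rest of the 3′ UTR with 7 aa, and 49 had a smaller one. The count was 69 of 125 genes (55.2%) with 27 aa, 93 of 139 (66.9%) with 52 aa and 92 of 137 (67.2%) with 74 aa. UBB, a ubiquitin precursor gene, was of the smaller kind: with 7 aa its near-end level was 7.42% and its level in the rest of the 3′ UTR was 17.9%. In GNAS, which encodes the stimulatory G protein alpha subunit, the levels were 21.2% near the end and 17.7% in the rest. TXNDC12, a thioredoxin-family protein of the endoplasmic reticulum, had 10.9% near the end and 3.27% in the rest.

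Within the last 100 nt the 7 aa level was highest at 20 to 29 nt and lower toward both edges of the window. The GFP level was highest at 20 to 29 nt too, at 2.94%. The 7 aa interval there (8.68 to 10.8) overlapped that at 30 to 39 nt (8.04 to 9.57). FAM46C 7 aa was between 7.72% and 9.69% in every 10 nt bin from 20 to 79 nt, 7.75% at 80 to 89 nt and 5.87% at 90 to 99 nt. GFP was between 2.16% and 2.94% from 20 to 99 nt. In wider bins the ratio of 7 aa to GFP was 3.04 (2.71 to 3.41) at 75 to 99 nt, 3.71 (3.35 to 4.09) at 50 to 74 nt, 3.66 (3.25 to 4.13) at 25 to 49 nt and 3.88 (2.68 to 5.61) at 10 to 24 nt. The 9 sites at 0 to 9 nt gave 4.81, with an interval of 1.08 to 21.4, too wide to place them. Beyond the window the ratio for 7 aa was smaller with each step, at 2.54 (2.33 to 2.76) for 100 to 149 nt, 1.90 for 150 to 199 nt, 1.67 for 200 to 399 nt and 1.15 for 400 to 799 nt, and it stood at 1.11 (1.07 to 1.16) for 1600 nt or more. For 27 aa the ratio was 2.68 (2.41 to 2.97) at 50 to 74 nt and 2.01 (1.78 to 2.28) at 75 to 99 nt. For 52 aa those values were 2.24 (2.02 to 2.48) and 1.93 (1.71 to 2.17). For 74 aa they were 0.743 (0.650 to 0.848) and 0.468 (0.393 to 0.556). The limit of 100 nt marked no break: the 76 sites at 95 to 99 nt had 2.67% in GFP and 6.34% with 7 aa, and the 91 sites at 100 to 104 nt had 2.0% and 6.86%.

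**Figure D2:**
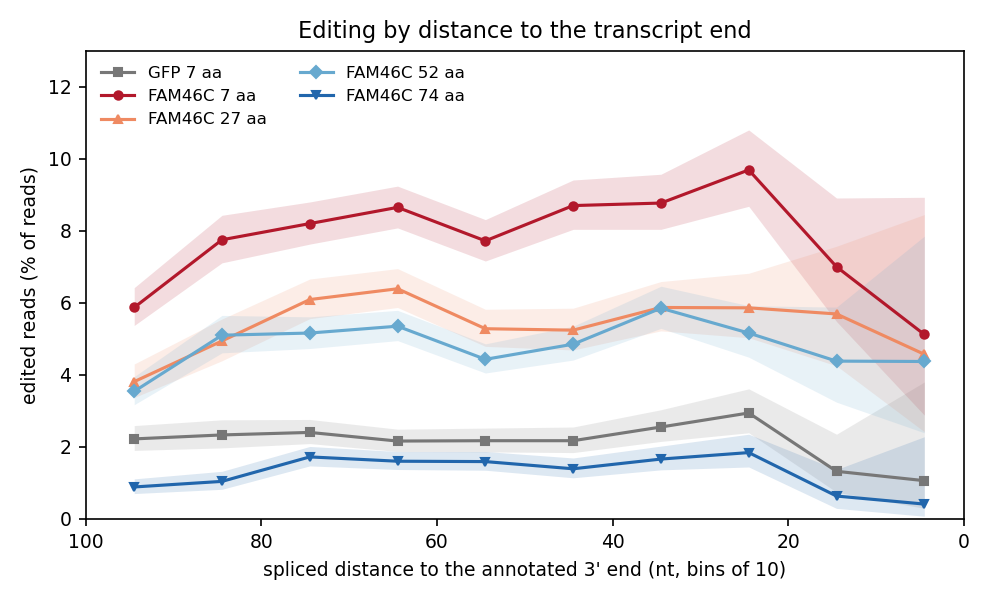
Edited reads in percent of reads (vertical axis) by distance to the annotated 3′ end in bins of 10 nt (horizontal axis, the end at the right) for the 5 libraries, with 95% Wilson intervals as bands. FAM46C 7 aa stays between 7.72% and 9.69% from 20 to 79 nt, with GFP between 2.16% and 2.94% over that stretch, and the bands widen where few sites lie, at 0 to 19 nt.

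Few sites lay at the very end. Among all C of the members' last 100 nt, 16.3% were listed at 60 to 69 nt, 10.2% at 20 to 29 nt, 2.40% at 10 to 19 nt and 0.660% (9 of 1364) at 0 to 9 nt. The median reads per site in the GFP library were 27 at 60 to 69 nt, 20 at 20 to 29 nt and 10 at 0 to 9 nt. Depth thus fell along with the number of sites, and its part in that fall was not tested. The annotated end is also uncertain: 764 members (50.5%) had more than 1 annotated end over the site, and a further 1260 3′ UTR sites lay within 100 nt of an annotated end other than that of the longest transcript. With the nearest annotated end in its place, 2773 sites lay under 100 nt, and the ratios to GFP were 2.44, 1.75, 1.58 and 0.502 for 7, 27, 52 and 74 aa.

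**Figure D3:**
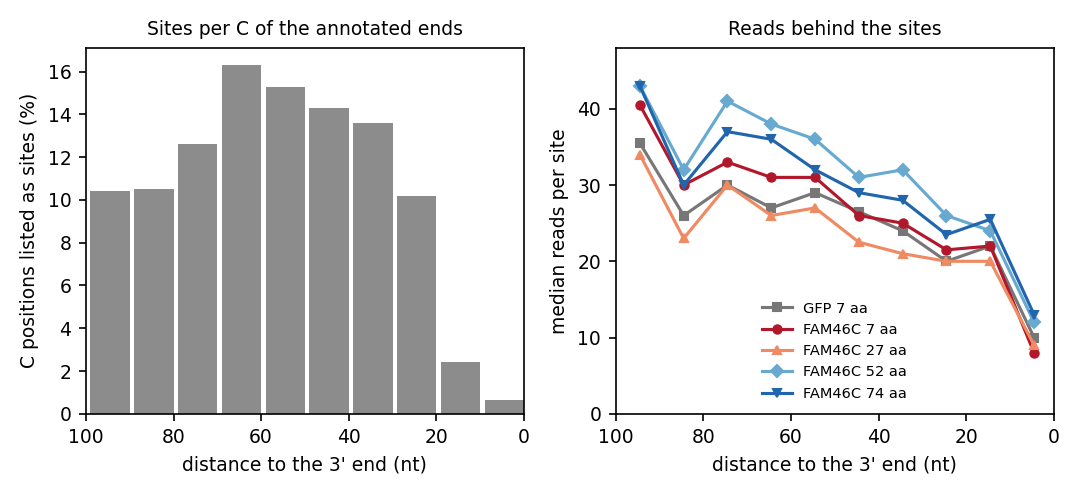
Left, the percent of C positions in the last 100 nt of the members' transcripts that were listed as sites; right, the median reads per site in each of the 5 libraries; both by distance to the 3′ end in bins of 10 nt. The percent of C listed was 10.4% at 90 to 99 nt, highest at 60 to 69 nt (16.3%) and 0.660% at 0 to 9 nt. The median reads in GFP were 35.5, 27 and 10 in these bins.

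By gene, the higher level was spread widely with the 7 aa linker. A gene's near-end window is the sum over its near-end sites. Of the 282 near-end windows with at least 50 reads in both libraries of the 7 aa pair, 256 (90.8%) were above GFP and 23 below. The median difference was 4.21 percentage points. Over all 2973 gene windows of any region with such depth, 55.4% were above GFP and the median was 0.659 points. Entry of sites differed between these sets. Sites with at least 2 edited reads in the 7 aa library alone were 30.3% of near-end sites, and in GFP alone 4.69%. Of other 3′ UTR sites these shares were 24.3% and 24.0%. The part of entry in the contrast was not tested. With 27 aa 200 of 256 windows (78.1%) were above GFP, beside 46.0% of all windows. With 52 aa 215 of 291 (73.9%) were above, beside 40.9%. The medians were 2.08 and 1.60 points, each beside a median of 0 over all windows. With 74 aa 163 of 287 near-end windows (56.8%) were below GFP and 82 (28.6%) above, beside 60.1% and 20.6% of all windows. The 74 aa median was -0.256 points, beside -0.901 over all windows. The edits were not held by a handful of genes: the 10 genes with the most edited reads supplied 17.1% of the edited near-end reads with 7 aa and 20.1% with GFP. Of the 778 genes, 424 (54.5%) had 1 site, 53 had 5 or more, and the most was 10, in ECH1.

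A two-sided Fisher's exact test on edited and unedited reads, with Benjamini-Hochberg adjustment over all gene windows, compared each fusion library with the GFP library. It compares the reads of 2 libraries, not the conditions. Reads shared by neighbouring sites enter a gene window more than once, so its p-value can be too small. At an adjusted p under 0.05, 44 of 763 near-end windows were higher with 7 aa (background 2.46% of all windows) and 0 were lower (background 0.600%). With 27 aa 23 of 765 were higher (background 1.01%) and 0 lower (0.926%), and with 52 aa 12 of 764 were higher (0.645%) and 0 lower (0.547%). With 74 aa 0 of 764 were higher (0.0559%) and 5 were lower (3.45%). Beside these zeros, the unadjusted Fisher p was under 0.05 for 1, 2 and 1 lower windows with 7, 27 and 52 aa and for 2 higher windows with 74 aa. Only windows with enough reads could be called, so the counts describe the deeper genes. Over members with at least 2 edited reads outside the compared pair, the calls of higher windows were 37, 17 and 11 for 7, 27 and 52 aa. They were 14, 7 and 6 over members with at least 2 edited reads in GFP, which leaves out windows at 0 in GFP by construction. Against the odds ratio of each fusion's whole library to GFP (1.45 for 7 aa) in place of no difference, the 7 aa calls were 26 windows. The 10 genes CST3, ECH1, GNAS, HBB, PKM, RHAG, THOC7, TMEM258, TXNDC12 and UBB were called higher with 7, 27 and 52 aa alike, in comparisons that share the GFP library. The matching share over all gene windows is not given, so these genes are a list and not an excess.

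**Figure D4:**
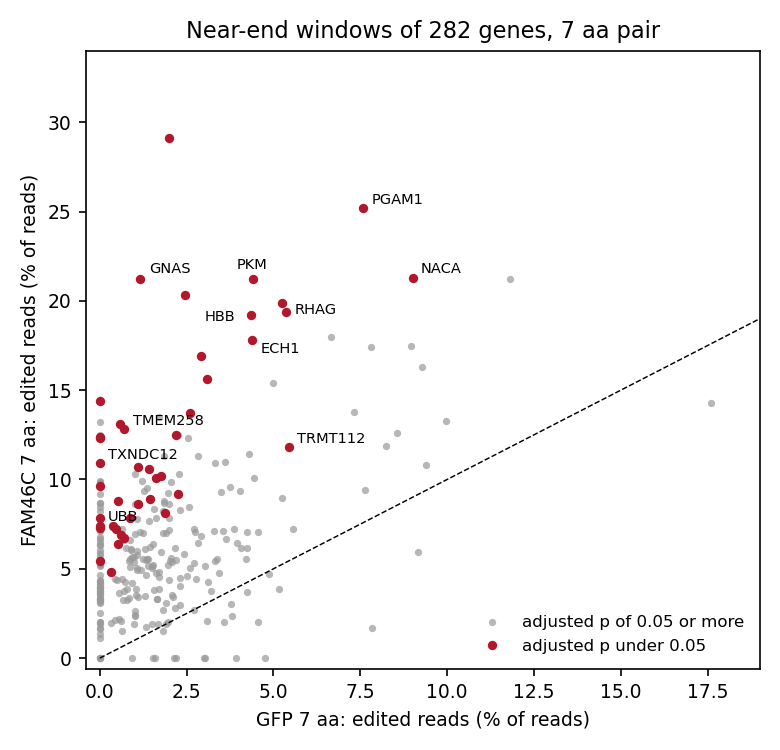
Each point is the near-end window of 1 of 282 genes with at least 50 reads in both libraries, placed by its edited reads in percent of reads with GFP (horizontal axis) and with FAM46C 7 aa (vertical axis); the dashed line marks equal levels and red points had a Fisher adjusted p under 0.05. Of the 282 points, 256 (90.8%) lie above the line, beside 55.4% of all gene windows of any region with such depth. The library through which sites entered differed between near-end and other 3′ UTR sites, and its part was not tested.

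Among genes of the erythroid lists, HBB and RHAG were called higher with 7, 27 and 52 aa. HBB, the adult beta globin, has no sites in the rest of its 3′ UTR. Its near-end level was 4.34% with GFP (38 of 876 reads), 19.2% with 7 aa (164 of 855), 14.4% with 27 aa, 12.1% with 52 aa and 6.21% with 74 aa. The levels of the first 3 fusions were higher than that of GFP (by Fisher's exact test, each adjusted p at most 2.2e-06), and the 74 aa level did not pass (adjusted p = 0.82). RHAG, the Rh-associated glycoprotein of the red cell membrane, had 5.36% with GFP, 19.4% with 7 aa, 14.3% with 27 aa, 14.1% with 52 aa and 6.82% with 74 aa. HBG2, the gamma globin gene with uncertain values, had 9.96% with GFP and 13.3% with 7 aa without passing the test (adjusted Fisher p = 0.85). In HBD, the delta globin, 0 of 84 GFP reads and 2 of 80 reads with 7 aa were edited. The counts by list are to be read against the 2.46% of all windows and the 5.77% of near-end windows called higher with 7 aa. Of 3 globin genes with near-end sites 1 was called higher with 7 aa, of 7 genes of the erythroid membrane and skeleton 1 (RHAG), of 5 heme and iron genes 0 and of 2 erythroid transcription factor genes 0. TMEM14C, which is needed for porphyrin transport into mitochondria, had 3.28% with GFP and 7.09% with 7 aa without passing the test (adjusted Fisher p = 0.31).

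Among the genes called higher with 7, 27 and 52 aa alike, TXNDC12, TMEM258 and CST3 are on the secretory pathway and lysosome lists used here. TXNDC12 had 0 edited of 146 GFP reads, which allows a level of up to 2.05%, and 10.9%, 12.6% and 12.0% with 7, 27 and 52 aa, with 2.17% at 74 aa. TMEM258, a subunit of the oligosaccharyltransferase, had 0.702% with GFP, 12.8% with 7 aa, 9.52% with 27 aa, 5.88% with 52 aa and 1.94% with 74 aa. CST3, the secreted cysteine protease inhibitor cystatin C, had 0.538% with GFP and 6.37%, 4.20% and 5.81% with 7, 27 and 52 aa. For CST3 the GFP level was the lowest of the 5 libraries, the 74 aa level being 2.24%. CTSL, the lysosomal protease cathepsin L, had 5.24% with GFP and 19.9% with 7 aa (adjusted Fisher p = 0.0014). HSP90B1, an endoplasmic reticulum chaperone, had 0.515% with GFP and 8.80% with 7 aa (adjusted Fisher p = 0.0017). CALR, the lectin chaperone calreticulin, named after its values were seen, was called with 27 aa (7.81%) and 52 aa (10.6%) and not with 7 aa (5.26%), against 0 of 176 GFP reads. SEC13, a coat protein of vesicles leaving the endoplasmic reticulum, had 0.386% with GFP, 7.40% with 7 aa, 2.48% with 27 aa and 2.27% with 52 aa, and was called with 7 aa only, the difference between linkers not being tested. Calls by list are to be read beside 5.77% of near-end windows with 7 aa and 3.01% with 27 aa (2.46% and 1.01% of all windows). Of 6 genes for endoplasmic reticulum chaperones, 2 were called higher with 7 aa and 3 with 27 aa. Of 9 for the oligosaccharyltransferase, translocon and signal peptidase, 1 was called with 7 aa and 1 with 27 aa. Of 6 for coat proteins and p24 trafficking these counts were 1 and 0. Of 11 for the lysosome and its proton pump they were 2 and 1. CANX, the membrane chaperone calnexin, had 0 of 118 GFP reads and 2 of 100 reads edited with 7 aa. Like CANX, the genes CTSC, RPN2, SEC61B, ARF1 and ERGIC3, among those with the most reads in these lists, were not called with any fusion. The summed near-end level of the 6 chaperone genes was 0.504% with GFP (0.196 to 1.29) and 6.79%, 6.22% and 6.01% with 7, 27 and 52 aa, with overlapping intervals among the 3 fusions (5.30 to 8.66, 4.82 to 7.99 and 4.79 to 7.53).

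ECH1, PKM, HSPE1 and MICU2, which belong to no list used here, and TOMM6 were among the largest changes with 7 aa. ECH1, an enzyme of fatty acid oxidation, held 10 near-end sites and had 4.39% with GFP, 17.8% with 7 aa, 18.0% with 27 aa, 11.4% with 52 aa and 6.13% with 74 aa. PKM, the glycolytic enzyme pyruvate kinase, had 4.41%, 21.2%, 21.5%, 14.8% and 7.42% in the same order. In ECH1 and PKM the 7 and 27 aa levels were close to each other. TOMM6, a small subunit of the mitochondrial outer membrane translocase, had 0 edited of 131 GFP reads, which allows up to 2.29%, and 14.4% with 7 aa (adjusted Fisher p = 5.4e-05). HSPE1, the mitochondrial co-chaperonin, had 2.92% with GFP, 16.9% with 7 aa and 4.04%, 3.41% and 1.85% with 27, 52 and 74 aa. MICU2, a regulator of mitochondrial calcium uptake, had 0 of 111 GFP reads, 12.3% with 7 aa and 3.42% with 27 aa. HSPE1 and MICU2 were called with 7 aa and with no other linker, the difference between linkers not being tested. Of 6 mitochondrial import genes with near-end sites 2 were called higher with 7 aa, of 21 respiratory chain genes 1 (NDUFB4) and of 15 mitochondrial ribosomal protein genes 0, beside 5.77% of all near-end windows and 2.46% of windows of any region.

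Signalling, ubiquitin and other genes were also among the 20 largest changes called with 7 aa. GNAS had 1.17% with GFP (3 of 256 reads), 21.2% with 7 aa (54 of 255), 14.5% with 27 aa, 13.7% with 52 aa and 2.30% with 74 aa (adjusted Fisher p = 7.9e-12, 1.4e-06, 5.3e-06 and 1.0). NEDD8, a ubiquitin-like modifier, had 2.46% with GFP, 20.3% with 7 aa, 14.1% with 27 aa, 9.71% with 52 aa and 0.654% with 74 aa. NACA, a chaperone of nascent chains, had 9.01% with GFP and 21.3% with 7 aa, with 10.7%, 8.91% and 2.34% at 27, 52 and 74 aa. PGAM1, a glycolytic mutase, had 7.58% with GFP and 25.2% with 7 aa, but 1 of its 3 sites was among the variant-like ones. UBB, named for its list and its read number, had 0 edited of 446 GFP reads, which allows up to 0.673%, and 7.42%, 5.07%, 4.88% and 1.41% with 7, 27, 52 and 74 aa. The others were ARHGEF1, FAM210B, SIVA1, TPSAB1, CIAO2B and SNRPB, with 7 aa levels between 12.4% and 31.7% and GFP levels between 0% and 6.45%. Of 15 proteasome and ubiquitin genes 1 (UBB) was called higher with 7 aa, beside 5.77% of near-end windows and 2.46% of all windows. Of 4 genes for poly(A) binding and deadenylation, 12 for cytoplasmic ribosomal proteins, 9 for solute carriers, 6 for translation factors, 9 for splicing factors of the HNRNP and SR families and 1 for zinc finger proteins, none was called higher with any fusion. The near-end shares called higher were 3.01%, 1.57% and 0% with 27, 52 and 74 aa (1.01%, 0.645% and 0.0559% of all windows). At such shares, no call in lists of this size is no contrast with the other lists.

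**Figure D5:**
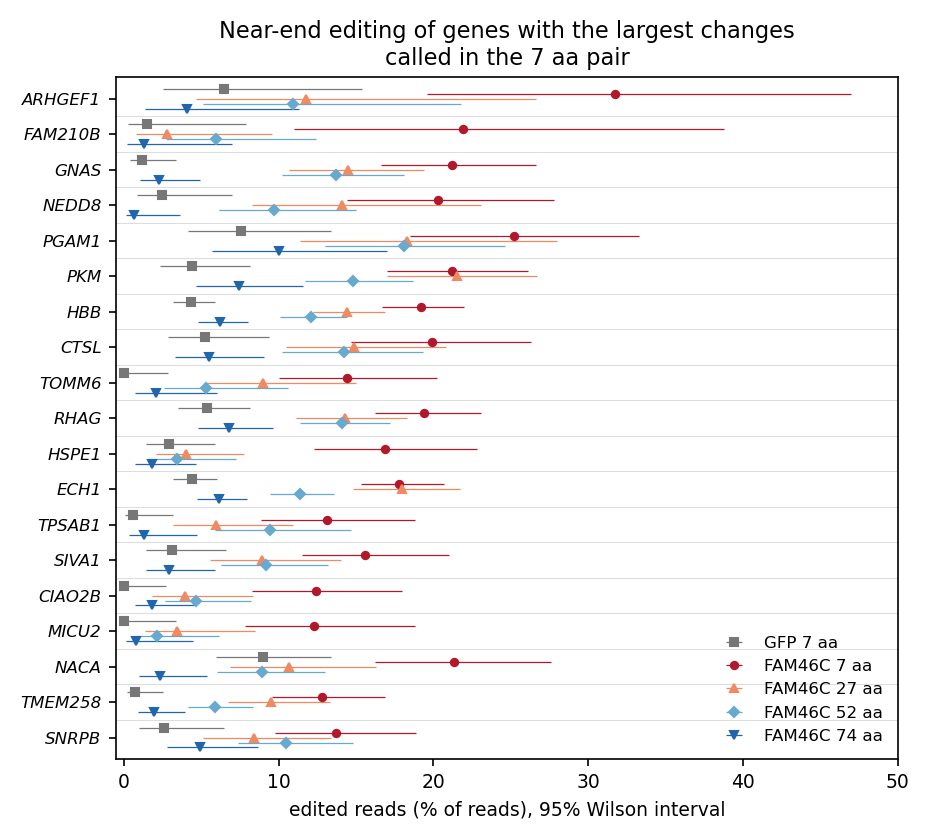
Near-end edited reads in percent of reads (horizontal axis) for 19 of the 20 genes with the largest difference called in the 7 aa pair (rows), each of the 5 libraries a symbol with its 95% Wilson interval. The genes were chosen on the 7 aa difference, so that gap is a description; the other linkers differ between genes, as in PKM (21.5% with 27 aa) and HSPE1 (4.04% with 27 aa).

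The 5 windows called lower with 74 aa, named because they are the whole set, were C1QBP, EIF2S3, H2AFZ, HNRNPM and HNRNPUL1. They were 5 of 764 windows (0.654%), below the 3.45% of all windows. Against the whole-library odds ratio of 74 aa to GFP (0.417), 0 near-end windows were lower and 3 were higher. With the nearest annotated end 19 were lower, and over sites with at least 2 edited reads in GFP 10. HNRNPM, an RNA-binding protein of nascent transcripts, had 3.76% with GFP (12 of 319 reads) and 0 of 354 reads with 74 aa, which allows up to 0.847%, but 9.57% with 7 aa (adjusted Fisher p = 0.0055 for 74 aa and 0.11 for 7 aa). HNRNPUL1 had 4.44% with GFP, 10.1% with 7 aa and 0.332% with 74 aa. EIF2S3, a subunit of translation initiation factor eIF2, had 3.43%, 4.79% and 0.193% in the same 3 libraries, and C1QBP, a mitochondrial matrix protein, 8.55%, 12.6% and 0 of 161 reads. H2AFZ, the histone variant H2A.Z, had 9.40%, 10.8% and 1.23%. In each of the 5 genes the 74 aa level was the lowest of the 5 libraries and the 7 aa level the highest. Over the 9 HNRNP and SR genes together the near-end level was 3.51% with GFP, 7.91% with 7 aa, 3.89% with 27 aa, 3.88% with 52 aa and 0.148% (0.0405 to 0.537) with 74 aa.

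Sites within 1 gene differed widely. The ECH1 site at position 38815484, 62 nt from the end, was edited in 15.2% of GFP reads (16 of 105), 57.8% with 7 aa (59 of 102), 53.1% with 27 aa, 41.0% with 52 aa and 26.4% with 74 aa, and the ECH1 site at 38815450, 28 nt from the end, in 0 of 43 GFP reads and 7.14% with 7 aa (3 of 42). All 10 ECH1 sites were above GFP with 7 aa, the smallest difference being 3.80 points, at 38815474. In GNAS the site at 58911123 was edited in 2.33% of GFP reads, 41.8% with 7 aa, 32.1% with 27 aa, 31.0% with 52 aa and 7.32% with 74 aa, and its neighbour at 58911100 in 0.893%, 13%, 8.85%, 7.76% and 0 of 113 reads. Most of the edited GNAS reads thus came from 1 C. The 3 HBB sites were alike with 7 aa, at 18.5%, 20.3% and 18.6%, but not with GFP, where the site at 5225541 had 7.14% and the sites at 5225496 and 5225538 had 2.28% and 3.28%. The 4 UBB sites had 0 edited reads in GFP and 3.88% to 9.58% with 7 aa.

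Site by site, with adjustment over all sites, 17 of 1490 members were called higher with 7 aa (background 0.378%; 7 against the whole-library odds ratio) and 0 lower (0.0116%), 7 of 1492 with 27 aa (0.111%) and 2 of 1493 with 52 aa (0.0876%). Of the same members 0 were lower with 27 aa (0.00583%) and 0 with 52 aa (0.0117%), with 1 lower member at an unadjusted Fisher p under 0.05 in each of the 7, 27 and 52 aa comparisons. With 74 aa, 0 of 1492 were higher (0.00582%) and 0 lower (0.0524%), with an unadjusted Fisher p under 0.05 at 1 higher and 12 lower members. The sites called with 3 fusions were GNAS 58911123 and ECH1 38815484, both printed above. PGAM1 at 46 nt reached 67.5% with 7 aa (27 of 40 reads) from 22.0% with GFP (9 of 41) and was variant-like by the rule above. SIVA1 at 31 nt, in a gene that promotes apoptosis, reached 57.1% with 7 aa (16 of 28 reads) from 4.76% with GFP (1 of 21). NEDD8 at 48 nt reached 32.5% with 7 aa from 2.94% with GFP, and TPSAB1, a mast cell tryptase gene, at 97 nt 15.9% from 0.725%. The set chosen for its high GFP share was also above GFP with 7 aa, and a smaller rise over GFP would follow from that choice: TUBB, a beta tubulin gene, had 16.6% with GFP, 26.3% with 7 aa, 14.6% with 52 aa and 5.76% with 74 aa, and S100A6, a calcium-binding protein gene, had 9.27%, 16.3%, 11.7% and 9.39%. TRMT112, a methyltransferase cofactor gene, had 13.6%, 25%, 14.7% and 3.96% in the same 4 libraries, and H2AFZ 9.40%, 10.8%, 6.22% and 1.23%. None of the 4 sites was called with any fusion (adjusted Fisher p between 0.48 and 1.0). They were taken outside the first set, which holds the called ECH1 site at 38815484 with 15.2% in GFP. Their lack of calls is therefore no result about sites with a high GFP share. Among members with at least 50 reads, 139 of 343 (40.5%) had no edited read with GFP, 36 of 391 (9.21%) with 7 aa and 269 of 437 (61.6%) with 74 aa. Such shares depend on entry. Of all members, 30.3% had at least 2 edited reads with 7 aa alone, 4.69% with GFP alone and 1.45% with 74 aa alone. The share of members at 20% or more was 0 of 343 with GFP, 15 of 391 with 7 aa, 7 of 261 with 27 aa, 7 of 509 with 52 aa and 1 of 437 with 74 aa.

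A was the most common base before the edited C, as at other 3′ UTR sites, and T was the next. The base before the edited C was A at 73.1% of the members and T at 25.3%, while over all C in the same last 100 nt it was A at 26.4% and T at 29.7%. At other 3′ UTR sites it was A at 78.6% and T at 18.3%. The windows printed above follow this: an A stands before the capital in all but the HBB site at 5225496. After A the level was 2.68% with GFP, 9.05% with 7 aa, 6.25% with 27 aa, 5.66% with 52 aa and 1.63% with 74 aa. After T it was 1.28%, 5.43%, 3.52%, 3.08% and 0.954%. The ratio to GFP with 7 aa was 3.38 (3.15 to 3.62) after A and 4.25 (3.62 to 4.99) after T, above 1 after both bases. The 21 nt windows held a median of 66.7% A or T, the same as at other 3′ UTR sites.

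The signal hexamers AATAAA and ATTAAA were searched on the transcript strand in the last 50 nt of 784 transcripts with members. AATAAA was found in 69.8% and ATTAAA in 20.7%, with 86.6% holding either, beside 63.0%, 18.2% and 77.3% of the 18041 genes searched the same way. Most edited C lay before the hexamer: 806 sites at 30 nt or more before it, 340 at 10 to 29 nt, 150 at 0 to 9 nt and 20 after it. With 7 aa the level was 7.86% (7.57 to 8.15), 8.37% (7.85 to 8.92), 10.4% (9.56 to 11.3) and 5.69% (3.89 to 8.27) in these classes, and with GFP 2.29%, 2.07%, 3.01% and 2.11%. The ratio of 7 aa to GFP was 3.44, 4.04, 3.45 and 2.70, with overlapping intervals. The S100A6 window printed above runs from its edited C straight into AATAAA, and in the HBB window at 5225496 5 bases separate the C from the hexamer. The 197 sites in transcripts without either hexamer in the last 50 nt had 2.14% with GFP, 6.47% with 7 aa and 0.788% with 74 aa.

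Between fusions the near-end level of 7 aa was 1.47 times (1.40 to 1.54) that of 27 aa, 1.64 times (1.57 to 1.71) that of 52 aa and 5.57 times (5.18 to 5.99) that of 74 aa. The 27 and 52 aa levels differed least, by a ratio of 1.11 (1.06 to 1.17), and both were over 3 times the 74 aa level (3.79 and 3.40). Protein levels of the fusions were not measured in these files, so linker and amount of fusion cannot be told apart.

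In the authors' deposited table of sites for 7 aa, 141 of 516 listed sites (27.3%) were near-end sites, though near-end sites were 8.37% of all sites. The authors' deposited tables for 27, 52 and 74 aa held 75 of 255 (29.4%), 46 of 207 (22.2%) and 6 of 30 (20%). The library that brought a site into the tables also differed by window. At least 2 edited reads with GFP were seen at 17.8% of near-end members and at 40.8% of the other 3′ UTR sites. With 7 aa those shares were 64.2% and 50.7%, and 30.3% of the near-end members had at least 2 edited reads in the 7 aa library alone.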

How the data were processed

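Poly(A) RNA from HUDEP-2 cells was sequenced, 1 library per construct. The authors deposited, for each APOBEC1 library, raw counts of reads with the reference and with the edited base per site, without normalization. Tools named in the submitters' processing notes, without a role, are Picard 2.27.1, SAMtools 1.18 and HISAT2 2.2.1, on GRCh38. The choice of sites is not given in the sources used. The authors also deposited tables of sites with a p-value for each fusion, used here only for which sites they list, and 24 of their per-sample columns matched no label and were not used.

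Sites were placed with GENCODE release 29 basic transcripts, protein-coding transcripts with C on their strand first, then the longest. Levels are sums of edited reads over sums of reads. Wilson intervals are at 95%, and a share of 0 is given with the limit that 3 counts allow. Two-sided Fisher's exact tests (SciPy 1.17.1 checked the implementation on simulated data; Python 3.11.15, pandas 2.3.3, numpy 2.4.6) were adjusted over all windows or sites. Each gene window is the sum over a gene's sites of 1 region. A variant-like site had at least 20% edited in all libraries with at least 5 reads, in at least 3 libraries. Genes named were the 20 largest differences called higher and the 5 largest called lower with 7 aa, the 3 with most reads of each of 18 gene lists, the 5 with most reads of all, and any marked or listed in a whole set. A gene that this rule names is not reported here. Sites shown were chosen by number of calls (up to 14) and by GFP share (4). The latter had at least 50 reads in every library, were not variant-like and were not among the 14. The members and lists were chosen with earlier results of these data known. Replicates did not exist, so p-values measure counting error between 2 libraries. For sums over sites, intervals and p-values can understate that error, since neighbouring sites share reads. Alternatives covered coverage, entry, base, globin genes, the distance limit, the nearest annotated end, equal weights and the odds ratio of all reads.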

Additional observations from a re-analysis of the deposited data

How the results depend on the processing

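No paired analysis was possible because each construct had 1 library, and for the same reason no library could be left out. The near-end ratios to GFP kept their direction under the alternatives run, except that the 74 aa ratio divided by that of all other sites was 1.52. The comparison of near-end with other 3′ UTR sites kept its direction for all 4 fusions under every alternative run for it, between 1.59 and 2.78 in the main and stratified, entry, distance and nearest-end settings. Counts of calls moved more, and the cause was not tested. With at least 2 edited reads in GFP, higher gene windows were 14, 7 and 6 (7, 27 and 52 aa), and with 74 aa 10 windows and 1 site were lower. With the nearest annotated end, 7 aa gave 81 higher windows and 27 higher sites, 52 aa 4 higher sites, 74 aa 19 lower windows and 2 lower sites, and 1 window was lower with each of 7, 27 and 52 aa. Under 50 nt, where fewer sites are counted, higher windows were 17, 4 and 3, higher sites 5, 1 and 0, and with 74 aa 1 window was lower. Against the whole-library odds ratio (1.45, 1.05, 1.01 and 0.417), 7 aa kept 26 higher windows and 7 higher sites, and 74 aa had 3 higher and 0 lower windows and 1 higher site. With entry outside the compared pair, 74 aa had 3 lower windows, and with at least 20 reads in all libraries 1 lower site. Leaving out sites under exons of more than 1 gene, a setting added after seeing the data, changed no direction or call count by over 1.5 times. Single sites had a median of 25 to 35 reads, which limits calls to large differences.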
